A study of Mus musculus with 9 samples.

Results

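The genes described here are 10 genes that mark vascular endothelium and that are expressed in the choriocapillaris, the capillary bed under the RPE. They are Pecam1, Cdh5, Tek, Tie1, Plvap, Egfl7, Vwf, Esam, Eng and Emcn. They were chosen by symbol, as every probe on the mouse array that is not a control and whose gene name is one of these symbols. All 10 genes were found, with 11 probes among the 39429 probes (31829 genes) of the array, and Plvap was the only gene with 2 probes. Gene expression was measured in laser dissected choroid (CH), RPE and photoreceptors (PR) of female C57BL/6 mice, for which no treatment is named, with 3 samples per tissue and 9 arrays in all. The labels give an age of 6 months with a range of 2 weeks, and the methods of the study give an age 1 month younger. The methods also name the J strain and the substrain C57BL/6JOlaHsd. According to them each sample came from 1 whole eye, and the RPE was removed before the CH was cut out. The amplified RNA of each sample carried the dye Cy5 and was hybridized against 1 reference preparation, made from RPE and choroid of mice of the same strain and labelled with Cy3. No array had its dyes swapped.

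The choriocapillaris is a dense bed of wide, fenestrated capillaries that feeds the RPE and the outer retina across Bruch's membrane. Photoreceptors have no vessels of their own, while the inner retina has a separate bed whose endothelium forms a tight barrier. The products of these genes hold endothelial cells together (Cdh5, Pecam1, Esam), receive signals that keep vessels stable (Tek, Tie1, Eng), form the diaphragm of fenestrae (Plvap), are secreted or stored by the endothelium (Egfl7, Vwf) or coat its surface (Emcn).

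In these data the endothelial genes were far higher in both the CH and the RPE samples than in the PR samples, and the CH and RPE samples were close to each other. The median log2 difference over the 10 genes was 3.50 for CH minus PR and 3.44 for RPE minus PR. For CH minus RPE it was 0.12. A gene was called when its fold change was above 2.5 and its limma p-value was below 0.01 after Benjamini-Hochberg adjustment over all 39429 probes. By this rule 9 of 10 genes were higher in CH than in PR, where 12.7% of all genes were called higher. Likewise 9 of 10 were higher in RPE than in PR, against 10.8% of all genes. Between CH and RPE 0 of 10 were called in either direction, while 1.74% of all genes were called higher and 0.179% lower in CH. The name choriocapillaris therefore describes where these genes are known to be expressed, and not a restriction to the CH samples.

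The probes are 60 bases long, and their positions are given on mm9 as in the files. The spots of all 11 probes were well above background in both dyes on all 9 arrays, and no spot of them was saturated or carried an outlier mark. The closest pair of probes belongs to Tek and Tie1, which encode the 2 receptors of the Tie family. They are shown because 39 of 57 aligned bases are identical (68.4%), with a longest identical run of 8 bases, while the next closest of the 55 probe pairs shares 26 bases and the median pair 20. Capitals mark the identical bases in the sequences, which are written 5′ to 3′. The Tek probe lies at chr4:94540624-94540683 on the plus strand and the Tie1 probe at chr4:118144132-118144191 on the minus strand.
Tek: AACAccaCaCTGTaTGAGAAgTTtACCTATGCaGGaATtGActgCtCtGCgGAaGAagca
Tie1: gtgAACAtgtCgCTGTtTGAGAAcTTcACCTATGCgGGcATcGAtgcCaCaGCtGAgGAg

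RefSeq (GRCm38.p6) promoter windows were held for 5 of the 10 genes, 7 windows in all. They are Tek, Tie1, Egfl7 with 3 start sites, Eng and Emcn. The letters AGGAAG, the core that ETS factors recognise, were searched on both strands in the 250 bases before each start. They were found in 5 of 7 windows, from 4 of 5 genes, and in 29.5% of the 32851 windows of all genes. TAAACA, a forkhead core, was found in 0 of 7 windows and in 12% of all windows. AGATAA, which GATA factors recognise, was found in 0 of 7 and in 9.99% of all. Matches of different motifs may overlap. The windows with 2 or 3 matches are shown, one from each of Egfl7, Eng and Emcn. Tie1 had 1 match and Tek had 0, and both were also called higher than in PR. Capitals mark AGGAAG or its reverse complement. The window of Egfl7 is chr2:26580833-26581082, that of Eng is chr2:32646345-32646594 and that of Emcn is chr3:137340828-137341077, all on the plus strand.
Egfl7: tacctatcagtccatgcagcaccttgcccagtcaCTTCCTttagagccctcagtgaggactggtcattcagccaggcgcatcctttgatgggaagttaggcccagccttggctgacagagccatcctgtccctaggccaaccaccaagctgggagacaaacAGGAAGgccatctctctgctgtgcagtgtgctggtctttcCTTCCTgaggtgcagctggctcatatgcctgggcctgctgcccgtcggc
Eng: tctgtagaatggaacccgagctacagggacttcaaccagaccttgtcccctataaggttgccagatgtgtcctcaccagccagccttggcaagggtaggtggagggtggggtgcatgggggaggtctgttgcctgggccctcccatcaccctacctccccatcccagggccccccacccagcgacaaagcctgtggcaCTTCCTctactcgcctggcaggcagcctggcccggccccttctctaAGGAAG
Emcn: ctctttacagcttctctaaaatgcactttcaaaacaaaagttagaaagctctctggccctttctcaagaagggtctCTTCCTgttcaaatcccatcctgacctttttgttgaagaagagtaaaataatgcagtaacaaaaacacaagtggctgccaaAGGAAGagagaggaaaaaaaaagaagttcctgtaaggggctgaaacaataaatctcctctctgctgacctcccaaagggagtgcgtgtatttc

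Values are log2(Cy5/Cy3), the level in the tissue over that in the reference, after background correction and loess normalization within each array. The reference is RPE and choroid RNA, and loess sets 0 at the trend of spots of like brightness on the array. A value of 0 need not be an equal level in tissue and reference. Without a dye swap, a dye effect stays in each value and cancels in the differences between tissues. In bulk samples like these, fewer endothelial cells and less RNA per endothelial cell cannot be told apart. According to the methods of the study, some cells of the neighbouring layers cannot be kept out of a dissected sample. How much choroid RNA the RPE samples held was not tested, so the RPE values are those of the dissected samples and not of RPE cells alone. On all 6 CH and RPE arrays 8 of 10 genes were above 0, and on all 3 PR arrays 10 of 10 were below 0. The share of all genes on each side of 0 is not given here, so these counts only describe the 10 genes.

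**Figure D1:**
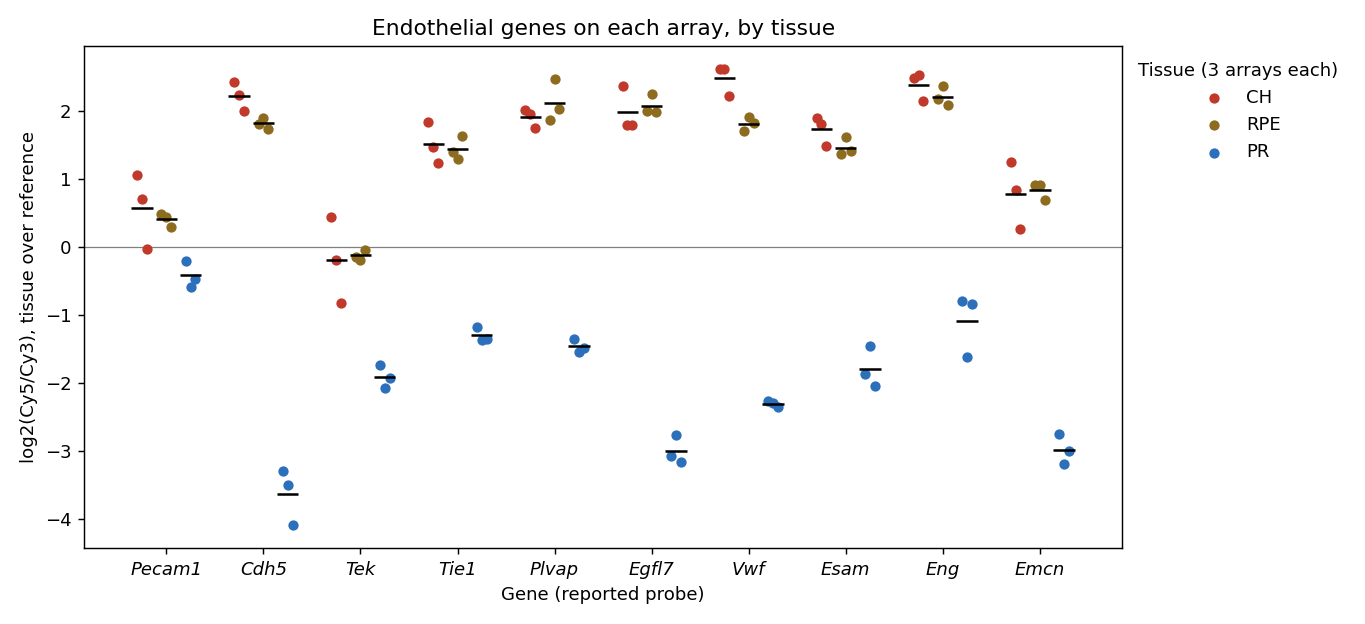
log2(Cy5/Cy3) (vertical axis) of the reported probe of each gene (horizontal axis) on each array, with the CH arrays in red, the RPE arrays in brown and the PR arrays in blue, and the mean of 3 arrays as a black bar. For all 10 genes the 3 PR arrays lie below the CH and RPE arrays, and for 8 of 10 genes the CH and RPE arrays overlap.

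Among the genes of cell junctions, Cdh5 encodes VE-cadherin, the adhesion protein of endothelial adherens junctions. On the CH arrays its log2 ratio was 2.42, 2.24 and 2.00, on the RPE arrays 1.81, 1.90 and 1.74, and on the PR arrays -3.30, -3.51 and -4.10. All CH arrays lay above all RPE arrays, and all of these lay far above the PR arrays. The log2 difference of CH minus PR was 5.85 ± 0.19 (SE, n = 3 per tissue), a fold change of 57.8 with a limma adjusted p of 8.94e-09. For RPE minus PR it was 5.45 ± 0.19, a fold change of 43.7 with a limma adjusted p of 2.1e-08. These were the largest differences of the 10 genes in both comparisons. Between CH and RPE Cdh5 differed by 0.40 ± 0.19, with a 95% interval from -0.03 to 0.83 and a limma adjusted p of 0.177.

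Esam encodes an adhesion molecule of endothelial tight junctions. Its log2 ratio was 1.90, 1.81 and 1.48 on the CH arrays, 1.36, 1.61 and 1.41 on the RPE arrays and -1.87, -1.46 and -2.04 on the PR arrays. The CH and RPE arrays overlapped, and both were above PR, by 3.52 ± 0.17 in the CH (limma adjusted p = 7.7e-08) and by 3.25 ± 0.17 in the RPE (1.8e-07). CH minus RPE was 0.27, with an interval from -0.10 to 0.64 (limma adjusted p = 0.302).

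Pecam1 encodes CD31, an adhesion molecule at endothelial cell contacts that platelets and leukocytes also carry. Its log2 ratio was 1.06, 0.70 and -0.03 on the CH arrays, 0.49, 0.43 and 0.30 on the RPE arrays and -0.21, -0.58 and -0.47 on the PR arrays. The CH arrays spread on both sides of the RPE arrays, and the lowest CH array was still above the highest PR array. The CH exceeded the PR by 1.00 ± 0.23, a fold change of 1.99, with a limma adjusted p of 0.00476. The RPE exceeded the PR by 0.83 ± 0.23, a fold change of 1.77, with a limma adjusted p of 0.0141. Pecam1 was thus the 1 gene of 10 that was not called in either comparison with PR. Its CH minus RPE difference was 0.17, with an interval from -0.36 to 0.69.

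Tek and Tie1 encode the receptor of the angiopoietins and its partner. The log2 ratio of Tie1 was 1.83, 1.46 and 1.24 on the CH arrays, 1.39, 1.29 and 1.63 on the RPE arrays and -1.17, -1.37 and -1.35 on the PR arrays. Tie1 in the CH exceeded that in the PR by 2.81 ± 0.16 (limma adjusted p = 2.21e-07) and the RPE exceeded it by 2.73 ± 0.16 (3.5e-07). The log2 ratio of Tek was 0.44, -0.19 and -0.83 on the CH arrays, -0.15, -0.19 and -0.04 on the RPE arrays and -1.73, -2.08 and -1.93 on the PR arrays. Its CH arrays spread widely around the RPE arrays. The differences of Tek from PR were the second smallest, at 1.72 ± 0.26 in the CH (limma adjusted p = 0.000273) and 1.79 ± 0.26 in the RPE (0.000243). CH minus RPE was 0.07 for Tie1, with an interval from -0.27 to 0.42, and -0.06 for Tek, with an interval from -0.65 to 0.52.

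Eng encodes endoglin, a co-receptor for ligands of the BMP and TGF-beta family. Its log2 ratio was 2.48, 2.52 and 2.15 on the CH arrays, 2.18, 2.37 and 2.08 on the RPE arrays and -0.80, -1.62 and -0.83 on the PR arrays. PR replicate 2 was lower than the other PR arrays, and the CH and RPE arrays overlapped. The CH exceeded the PR by 3.47 ± 0.21 (limma adjusted p = 4.44e-07) and the RPE exceeded it by 3.30 ± 0.21 (8.23e-07). Between CH and RPE it differed by 0.18, with an interval from -0.30 to 0.65.

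Plvap encodes the protein of the diaphragms that span fenestrae and caveolae, a feature that sets fenestrated capillaries apart from barrier capillaries. At the brighter probe (chr8:74021877-74021936, minus strand) its log2 ratio was 2.01, 1.95 and 1.75 on the CH arrays, 1.87, 2.48 and 2.02 on the RPE arrays and -1.36, -1.54 and -1.49 on the PR arrays. RPE replicate 2 was the highest array. The CH exceeded the PR by 3.37 ± 0.15 (limma adjusted p = 6.22e-08) and the RPE exceeded it by 3.58 ± 0.15 (6.09e-08). CH minus RPE was -0.22, the lowest of the 10 genes, with an interval from -0.56 to 0.13 and a limma adjusted p of 0.372. The other Plvap probe (chr8:74030739-74030798) disagreed with the brighter one, in the size of the differences from PR and in the sign of CH minus RPE. It gave 1.13, 0.04 and 0.80 in the CH, 0.46, 0.07 and 0.62 in the RPE and -0.29, -0.56 and 0.13 in the PR. Its CH minus RPE difference was 0.27 (limma adjusted p = 0.55), against -0.22 at the brighter probe. Its differences from PR were 0.90 in the CH (limma adjusted p = 0.0204) and 0.62 in the RPE (0.0917), and it was not called in any comparison.

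Egfl7 encodes a protein that endothelial cells secrete into the matrix around vessels. Its log2 ratio was 2.37, 1.79 and 1.80 on the CH arrays, 2.00, 2.25 and 1.98 on the RPE arrays and -3.08, -2.77 and -3.16 on the PR arrays. The CH exceeded the PR by 4.99 ± 0.17, a fold change of 31.7 (limma adjusted p = 1.24e-08), and the RPE exceeded it by 5.08 ± 0.17, a fold change of 33.8 (1.79e-08). CH minus RPE was -0.09, with an interval from -0.48 to 0.30, and the 2 tissues overlapped.

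Vwf encodes von Willebrand factor, which endothelial cells store and which binds platelets. Its log2 ratio was 2.62, 2.62 and 2.22 on the CH arrays, 1.71, 1.91 and 1.82 on the RPE arrays and -2.26, -2.29 and -2.36 on the PR arrays. The 3 tissues did not overlap. The CH exceeded the PR by 4.79 ± 0.12, a fold change of 27.7 (limma adjusted p = 2.95e-09), and the RPE exceeded it by 4.12 ± 0.12, a fold change of 17.4 (9.92e-09). The CH also exceeded the RPE by 0.67 ± 0.12, a fold change of 1.60, with an interval from 0.40 to 0.95. This was the 1 gene of 10 with a limma adjusted p below 0.01 in that comparison (0.00392), and it did not reach the fold change of the call. The adjusted p of Vwf was between 0.000794 and 0.0729 over 22 distinct fits and was below 0.01 in 15 of them. It was 0.0162 without CH replicate 1, 0.0204 without CH replicate 2, 0.0192 without RPE replicate 1 and 0.0153 without RPE replicate 3.

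Emcn encodes endomucin, a sialomucin on the surface of capillary and venous endothelium. Its log2 ratio was 1.25, 0.83 and 0.26 on the CH arrays, 0.92, 0.92 and 0.69 on the RPE arrays and -2.76, -3.19 and -3.00 on the PR arrays. As for Pecam1 and Tek, the CH arrays spread on both sides of the RPE arrays. For Emcn the CH exceeded the PR by 3.76 ± 0.22 (limma adjusted p = 3.46e-07) and the RPE exceeded it by 3.82 ± 0.22 (3.97e-07). CH minus RPE was -0.06, with an interval from -0.56 to 0.44.

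For CH minus RPE, 6 genes had a positive and 4 a negative difference. With another normalization, median centring, all were positive. In the main fit the intervals of all 10 genes lay between -0.65 and 0.95, inside the fold change of 2.5, which is 1.32 on the log2 scale. The p-value was below 0.05 without adjustment for 1 of 10 genes. The CH arrays lay above the RPE arrays without overlap for 2 of 10 genes, Cdh5 and Vwf, against 19.1% of all genes. The CH arrays lay above the PR arrays for 10 of 10 genes, against 28.6% of all genes, and the RPE arrays did so for 10 of 10, against 28.9%. The median over all genes on the array was -0.03 for CH minus RPE, -0.05 for CH minus PR and -0.01 for RPE minus PR. The comparisons with PR share the PR arrays, and all 3 share one estimate of the spread.

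**Figure D2:**
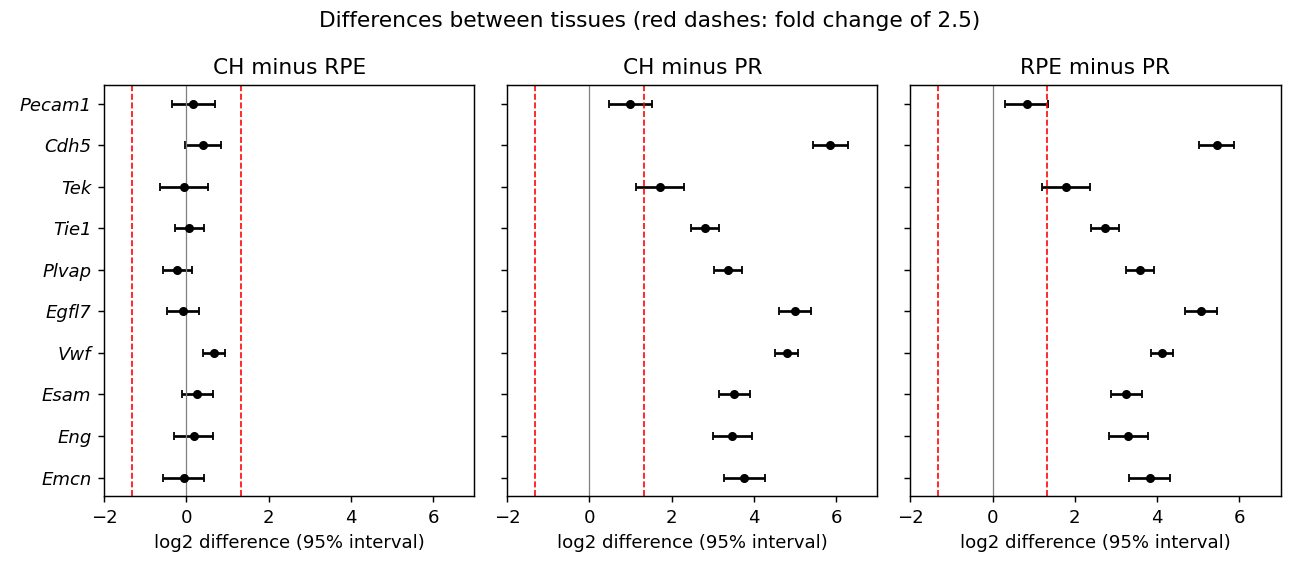
log2 difference between tissues (horizontal axis) with its 95% interval for each gene (vertical axis), in 3 panels for CH minus RPE, CH minus PR and RPE minus PR, with red dashes at a fold change of 2.5. In the first panel all 10 intervals lie between the dashes, and in the other panels 9 of 10 genes have their point beyond the upper dash, with Pecam1 below it.

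**Figure D3:**
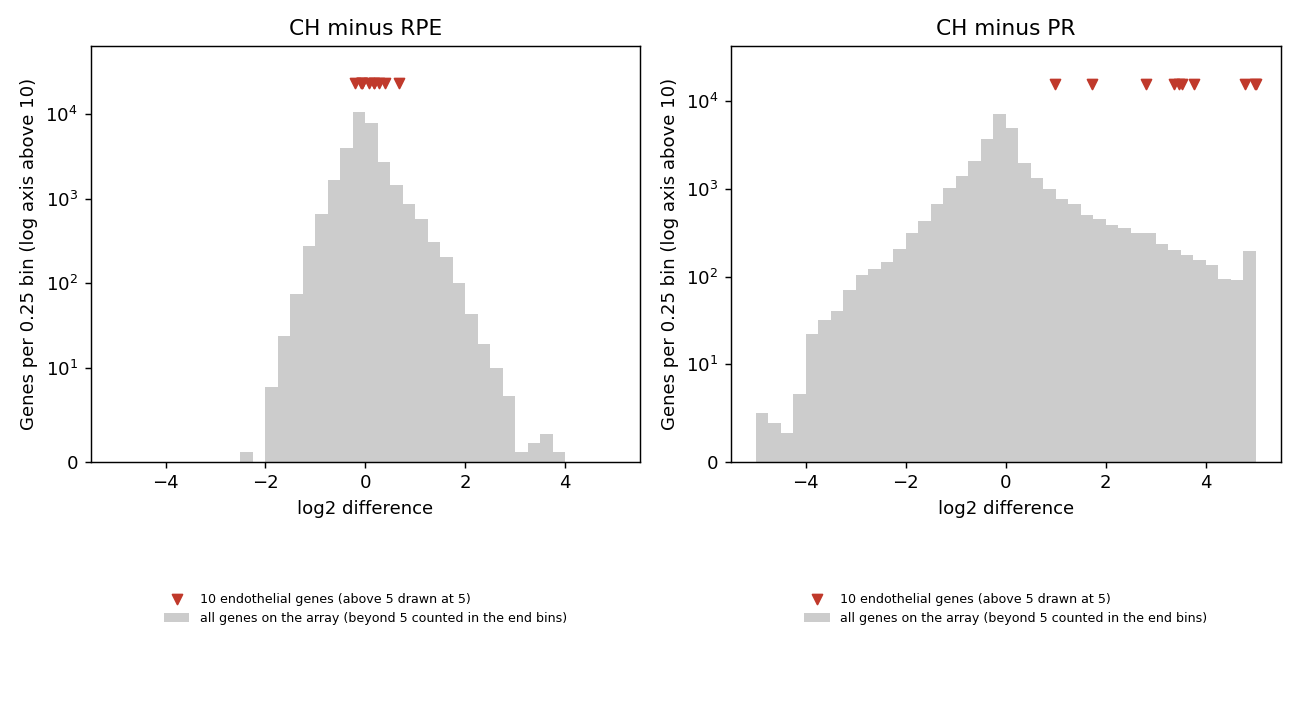
Number of genes per bin of 0.25 (vertical axis, logarithmic above 10) by log2 difference (horizontal axis), for CH minus RPE and CH minus PR, with the 10 endothelial genes as red triangles. The triangles lie over the peak of the CH minus RPE distribution, between -0.22 and 0.67, and over the upper tail of the CH minus PR distribution, between 1.00 and 5.85 (values beyond 5 are drawn at 5).

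The arrays came on 3 slides. One held CH and RPE replicates 1 and 3, one held replicate 2 of all 3 tissues and one held PR replicates 1 and 3. Within the slide that held 4 CH and RPE arrays the median CH minus RPE difference of the 10 genes was 0.11, and between the CH and RPE arrays of the slide with all 3 tissues it was 0.16. With slide as a block it was 0.12. On the slide with 1 array of each tissue the median was 3.76 for CH minus PR and 4.01 for RPE minus PR, and with slide as a block it was 3.84 and 3.92. All 10 genes were higher than in the PR array of that slide in both.

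Within the CH the endothelial genes differed from array to array together. CH replicate 1 was above the CH mean for 10 of 10 genes, with a median deviation of 0.26, and CH replicate 3 was below it for 10 of 10, with a median deviation of -0.26. Over all genes 50.7% were above the CH mean in CH replicate 1 and 47.3% in CH replicate 3. CH replicate 3 was also above the CH mean for 1 of 25 other endothelial surface genes and for 0 of 9 genes of pericytes and smooth muscle. Lists outside the vessel wall were low there too, with 1 of 7 fibroblast genes and 1 of 9 macrophage and leukocyte genes above the mean. The same held for 1 of 6 platelet genes and 1 of 5 genes of red blood cells. In contrast, 6 of 7 RPE markers, 9 of 9 rod genes and 5 of 7 barrier endothelium genes were above the mean in CH replicate 3. Genes of melanocytes and pigment lay between, with 3 of 7 above the mean there and a median deviation of -0.07. The rod genes had a median deviation of 0.37 in CH replicate 3 and of -0.49 in CH replicate 1, where 0 of 9 were above the mean. The part of these cell types in the spread of the endothelial values was not tested. Without CH replicate 1 the median CH minus RPE difference of the 10 genes was -0.08, and without CH replicate 3 it was 0.27. RPE replicate 2 was above the RPE mean for 8 of 10 genes, against 50.1% of all genes, with a median deviation of 0.09. On that array 91.7% of probes were well above background, against 62.1% to 71.3% on the other arrays. PR replicate 1 was above the PR mean for 8 of 10 genes and PR replicate 3 for 1 of 10, against 55% and 46.3% of all genes.

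**Figure D4:**
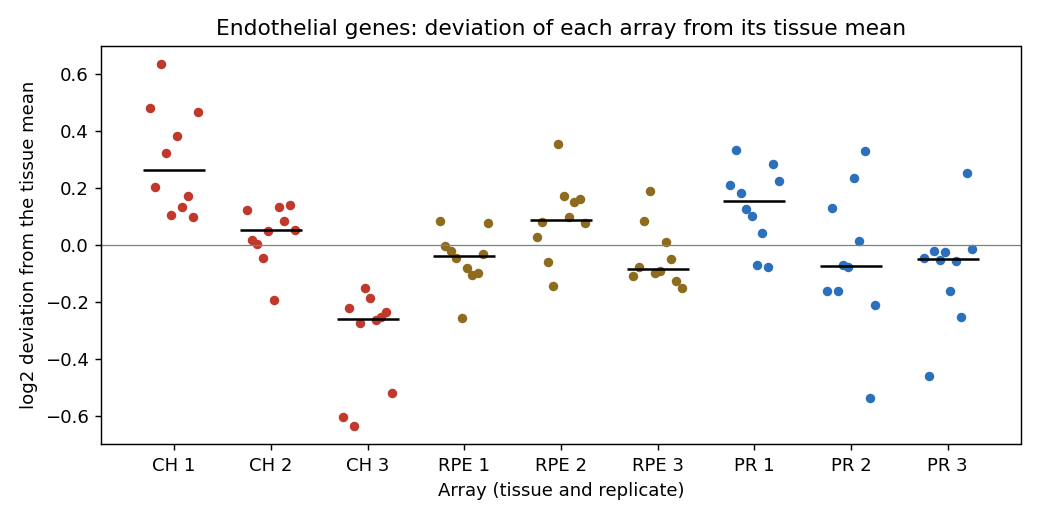
Deviation of the log2 ratio from the mean of its tissue (vertical axis) for the 10 endothelial genes (points) on each array (horizontal axis), with the median as a black bar. In CH replicate 1 all 10 points lie above 0 and in CH replicate 3 all 10 lie below 0.

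The ligands, modulators and targets of the receptors above were described from a list of 12 genes. In CH minus RPE 1 of 12 was called higher and 0 lower, with a median of 0.28. The differences of these 12 genes went both ways, from -0.22 to 1.77. The gene called was Angpt1, the activating ligand of Tek, at 1.77 ± 0.22 (fold change 3.41, limma adjusted p = 0.000657). Its probe was not well above background on any PR array. Angpt2, the other main ligand, which can oppose Angpt1, was at 0.33 (limma adjusted p = 0.221). Ptprb, the vascular phosphatase that acts on Tek, was at 0.87 ± 0.16 and passed the p-value (0.00391) but not the fold change. Acvrl1, the type I receptor that works with endoglin, was at 0.67 (limma adjusted p = 0.0144). Id1, a target of BMP signalling, was at 0.70 and passed the p-value only (0.00636). Of the remaining partners, Smad5 was at 0.38, Bmpr2 at 0.23, Id3 at 0.21 and Angpt4 at 0.14. Bmp10 was at -0.22, Gdf2 at -0.13 and Smad1 at -0.07. The probe of Gdf2 was well above background on 0 CH arrays and that of Angpt4 on 1. In each comparison with PR 6 of 12 genes were called higher and 0 lower, namely Angpt1, Angpt2, Ptprb, Acvrl1, Id1 and Id3. Ptprb was higher than in PR by 6.37 in the CH and 5.49 in the RPE, and Id1 by 5.26 and 4.55.

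Of 25 other endothelial surface and signalling genes, 0 were called in CH minus RPE in either direction, and their median was 0.12, as for the 10 genes themselves. In each comparison with PR 17 of 25 were called higher and 1 lower, where 6.09% of all genes were called lower in the CH than in the PR and 5.23% in the RPE. Of 12 endothelial transcription factors 1 was called higher in CH than in RPE, Sox17, at 1.32 ± 0.17 (limma adjusted p = 0.000823), just past the fold change of the call at 2.504, and the median of the list was 0.62. Against PR 12 of 12 were called higher in the CH and 11 of 12 in the RPE. Over these 3 lists together 2 of 49 genes were called higher in CH than in RPE, against 1.74% of all genes. The p-value was passed in that direction by 10 of 49, against 7.47% of all genes, and 35 of 49 had a positive difference, against 44.8% of all genes.

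The lists of other cell types varied in CH minus RPE. All 7 of 7 fibroblast genes were higher in the CH, with a median of 1.88, led by Col1a1, a chain of collagen I, at 3.62 ± 0.12 (limma adjusted p = 2.99e-06). The probe of 1 of the 7, Dcn, was saturated on all CH arrays. The mean log2 ratio of the fibroblast list was between 1.19 and 1.57 on the CH arrays and between -1.16 and -0.75 on the RPE arrays, while the mean of the 10 endothelial genes ran from 1.20 to 1.84 and from 1.36 to 1.50 on the same arrays. In the PR the endothelial mean ran from -2.07 to -1.85. Of 9 genes of pericytes and smooth muscle 2 were higher in the CH, Tagln and Cnn1, both of smooth muscle, at 1.92 and 1.74, with a median of 0.80 over the list. Of 9 genes of macrophages and leukocytes 3 were called higher in the CH, led by Emr1, a macrophage surface marker, at 1.99. The differences of these 9 genes went both ways, from -0.53 to 1.99, with a median of 0.83. Of 7 RPE markers 5 were called lower in the CH. Of the 7 probes 4 were saturated on all RPE arrays, 1 of them, Ttr, also on all CH arrays, so that their differences are not measured in full. Rlbp1, which carries retinoids in the RPE and had no saturated spot, was at -1.76 ± 0.31 (limma adjusted p = 0.00315). Of 9 rod genes 0 were called between CH and RPE, and 9 of 9 were called lower in the CH than in the PR, as were 9 of 9 in the RPE, with 3 of the 9 probes saturated on all PR arrays.

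Of 7 genes of the barrier endothelium of retina and brain, several of which the RPE also expresses, 1 was called lower in the CH. It was the transporter Slco1a4, at -1.33 ± 0.13 (limma adjusted p = 0.000201). The study lists Slco1a4 among its mouse RPE signature genes. The differences of these 7 genes went both ways, from -1.64 to 0.58, with a median of -1.20. The probe of the gene at -1.64 was saturated on 1 CH and 2 RPE arrays, so that its difference is not measured in full. Of 5 lymphatic genes 0 were called in CH minus RPE. Platelets also carry the products of Vwf and Pecam1, and of 6 platelet genes 0 were called, and between 1 and 6 of them were well above background on an array. Of 5 genes of red blood cells 0 were called and of 6 of skeletal muscle 0. Of 7 genes of melanocytes and pigment 3 were called higher in the CH, and 2 of the 7 probes were saturated on all CH arrays. As measured, the differences of this list went both ways, from -0.68 to 2.17. The part of these cell types in the endothelial values was not tested.

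**Figure D5:**
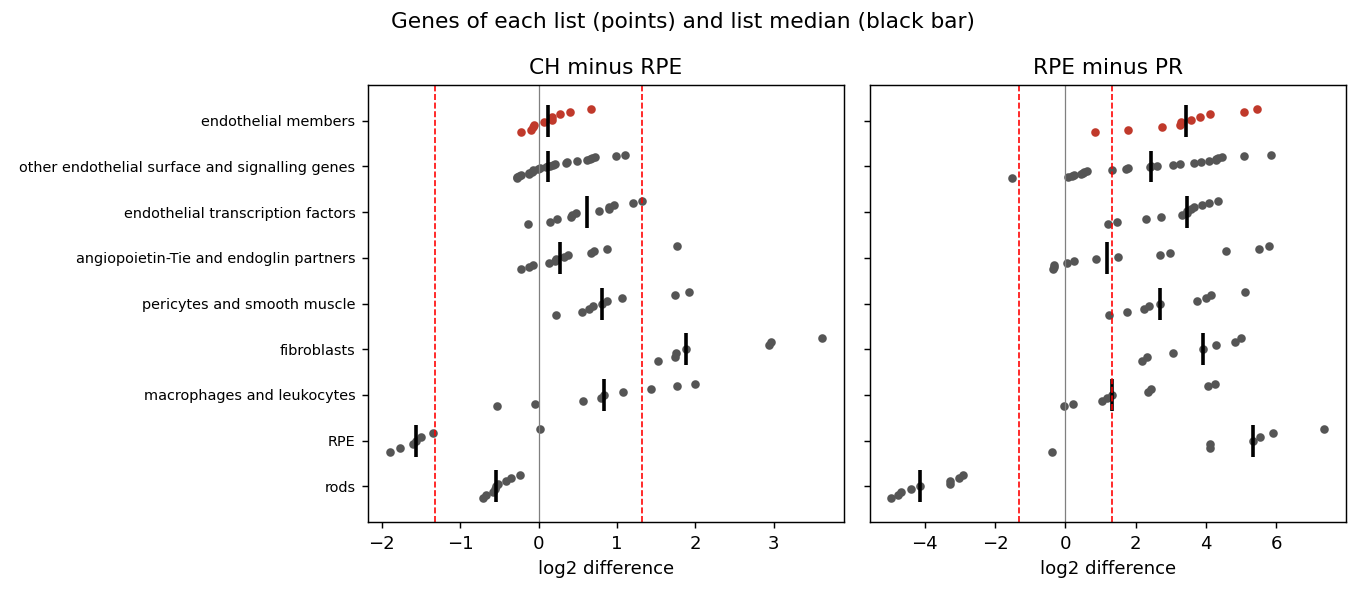
log2 difference (horizontal axis) of each gene (points) in 9 of the gene lists (vertical axis), for CH minus RPE and RPE minus PR, with the list median as a black bar, the 10 endothelial genes in red and red dashes at a fold change of 2.5. In CH minus RPE the 10 endothelial genes lie between the dashes, all 7 fibroblast genes lie beyond the upper dash and 6 of 7 RPE markers lie beyond the lower dash, of which 5 were called. Points of probes with saturated spots, among them 5 RPE markers, are drawn as measured. Of these markers 4 were saturated on all RPE arrays.

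Across the 9 arrays the log2 ratio of each gene was correlated with the mean of the other genes with Pearson's r between 0.875 (Pecam1) and 0.996. The arrays share 3 tissues, so this r mostly follows the gap to PR. Among 19680 other genes that were well above background on all CH arrays, 410 (2.08%) had r above 0.99 with the mean of the 10 genes. The 8 highest were Golm1, Gimap1, H2-DMb1, Sox7, Dapk2, Rab31, Enpep and Sh3pxd2b, with r between 0.9985 and 0.9992. This measure selects genes whose CH and RPE arrays are alike, and their CH minus RPE differences ran from 0.05 for Sh3pxd2b to 0.47 for Enpep. Sox7 is also in the list of endothelial transcription factors.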

How the data were processed

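The authors labelled amplified RNA, hybridized it to 2-colour Agilent arrays and extracted them with Agilent Feature Extraction 9.5.3.1 (submitters' processing notes, which also name R 2.14.0 and limma). In the deposited output, mean signals and median local backgrounds are intensity values as scanned, the processed signals are intensities corrected by the software, and its log ratio is a log10 value of Cy5 over Cy3. A series table deposited by the authors gives normalized Cy5 signals on a log2 scale. It was matched to the arrays by spot number (r between 0.988 and 0.999 with the log2 Cy5 signal, medians between 9.378 and 9.549). How it was normalized is not given in the sources used here. The log ratio, the processed signals and this table were used only as alternatives.

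Here normexp (offset 50) was applied to the background and loess to the ratios within arrays. Control spots (of 44397 spots, 43020 are not controls) and 228 to 586 spots per array marked as outliers were not used, and repeated spots were averaged. A mean per tissue was fitted to all 9 arrays with limma 3.58.1 in R 4.3.3, and two-sided p-values were adjusted over 39429 probes. Figures were drawn with Python 3.11.15 and matplotlib 3.10.9. A gene's value is that of its probe with the brightest mean Cy5. Genes are those named in the files. With 3 arrays per tissue, precision is limited by their number. Each sample is 1 eye, and nothing says whether eyes of 1 mouse were used more than once.

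Replicate numbers are shared by the tissues. Deviations of same-numbered arrays correlated between -0.076 and 0.289, above 0.1 in 4 of 9 pairs. The pairs of replicate 2, at 0.164, 0.289 and 0.234, also share a slide, so number and slide cannot be told apart for them. The numbers were not taken to pair the samples.

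On simulated arrays with known differences for CH minus RPE, the fit over 39429 probes called 98 of 100 probes changed by 2 on the log2 scale, 100 of 100 changed by 3 and 0 unchanged probes. Both changes lie past the fold change of the call (1.32). Smaller ones, such as the -0.22 to 0.67 of the 10 genes, were not simulated, so these counts do not bear on them.

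The 10 genes and the gene lists were chosen with earlier results of these data known. Named genes are the 10, up to 3 per other list past both thresholds with the largest CH minus RPE difference, the receptor partners and the 8 genes of most similar pattern. The promoter motifs were chosen after the values were seen. There were 26 alternatives, which covered background correction, normalization, reference channel, series table, dim and marked spots, arrays fitted, blocks, variance model, thresholds, probes per gene, slides and each array left out in turn. Human data were not analysed here.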

Additional observations from a re-analysis of the deposited data

How the results depend on the processing

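The number of genes called (0 for CH minus RPE, 9 for CH minus PR and 9 for RPE minus PR) was the same in 25 settings, each array left out in turn included, and Pecam1 was called in none of them. These settings hold 22 distinct fits, since Aquantile leaves the ratios as they are and the other thresholds (fold change above 2, adjusted p below 0.05) use the same fit. For CH minus RPE the largest difference of any of the 10 genes under any alternative was 1.02, for Vwf in the Cy5 channel alone. The median over the 10 genes, 0.12 for CH minus RPE, was 0.378 with median centring and ranged from -0.0792 to 0.274 when each array was left out in turn. With median centring all 10 genes had a positive difference and none was called. Cdh5 was then at 0.701 and Esam at 0.58 (limma adjusted p = 0.03 for both). The genes that were negative in the main fit were then at 0.187 for Tek, 0.0488 for Plvap, 0.22 for Egfl7 and 0.213 for Emcn. In other settings the sign turned for single genes near 0. Egfl7 was at 0.118 in the Cy5 channel alone, 0.078 in the series table and 0.0928 within the slide of 4 CH and RPE arrays. Plvap was at 0.0285 as the median of its probes. When each array was left out in turn, Pecam1 ranged from -0.0722 (without CH replicate 1) to 0.47, Tie1 from -0.0862 (without CH replicate 1) to 0.212, Tek from -0.382 to 0.254 (without CH replicate 3), Emcn from -0.293 to 0.198 (without CH replicate 3) and Egfl7 from -0.281 to 0.00624 (without CH replicate 2, and 0.00293 without CH replicate 3). The median for CH minus PR, 3.50, was 3.23 with the log ratio of Feature Extraction, 3.82 with median centring, 3.84 in the Cy5 channel alone, 3.89 in the series table, 3.84 with slide as a block and 3.76 within the slide that holds all tissues, and ranged from 3.43 to 3.62 when each array was left out. The median for RPE minus PR, 3.44, was 3.16 with the log ratio of Feature Extraction, 3.70 in the Cy5 channel alone, 3.77 in the series table, 3.92 with slide as a block, 3.27 with the median of a gene's probes and 4.01 within the slide that holds all tissues, and ranged from 3.31 to 3.54 when each array was left out. The causes of these shifts were not tested. With the replicate number as a block the medians were 0.12, 3.50 and 3.44 and no call of the 10 genes changed. Of the 9 arrays 5 correlated best with an array of their own number, and 5 with an array of their own slide.

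Over all probes 611 were called higher in CH than in RPE and 73 lower. The replicate block gave 623 and 68, median centring 1169 and 13, the Cy5 channel alone 454 and 33, the values of the series table gave 381 and 24, and a fold change above 2 gave 1296 and 410. For CH minus PR 4731 were called higher and 2523 lower, and the log ratio of Feature Extraction gave 4964 and 4367.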
